A study of Rattus norvegicus with 14 samples.

Results

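Pmp22 held 22 of the 4993 transcription start sites (TSSs) listed for these Schwann cell libraries, and all 22 were taken by their gene symbol. Each value counts transcript 5′ ends that were mapped to a TSS, in reads per 1000000 reads of the library (RPM), and is not divided by length. Of the 14 libraries, those of nerve came from whole sciatic nerves of wild type adult rats aged 6 to 9 months. These were independent nerves (nerve, n = 2), and the number of animals is not stated. Wild type primary rat Schwann cells were given vehicle (control, n = 3) or 250 µM CPT-cAMP for 3 days (cAMP, n = 3). Both were in medium with 5% serum after neuregulin and forskolin had been withdrawn. The remaining libraries came from S16 cells, an immortalized rat Schwann cell line grown in 10% serum. The S16 libraries were 2 RNA samples of the unmodified line (parental, n = 2, wild type) and 4 clones of 1 library each (ΔSOX10), made with Cas9 and 2 guide RNAs against the first coding exon of Sox10 and carrying frameshift alleles alone. Clones 1-1 and 1-2 and clones 2-1 and 2-2 are named as in the labels. Nerve and S16 libraries were sequenced on a HiSeq and primary cell libraries on a NovaSeq, so the primary cells were not tested against the other groups and their levels are set side by side with them as a description. A TSS entered the list because it was active in nerve and lay near an H3K4me3 ChIP-Seq peak of nerve that overlapped a SOX10 peak. The presence of a TSS in nerve and a nearby SOX10 peak are thus part of the selection. Shares over all TSSs tested are shares of such TSSs, and a gene that is not listed may still be expressed.

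PMP22 (peripheral myelin protein 22) is a small membrane protein with several membrane-spanning segments that Schwann cells place in compact myelin. Its dose matters: duplication of the gene causes the demyelinating neuropathy Charcot-Marie-Tooth disease type 1A, and its deletion causes hereditary neuropathy with liability to pressure palsies. The gene has alternative promoters whose transcripts differ in their first exon and encode the same protein, and SOX10, a transcription factor of the neural crest and of Schwann cells, is a known activator of it. CPT-cAMP is a membrane-permeable analog of cyclic AMP used to drive cultured Schwann cells toward differentiation.

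The RefSeq promoter of Pmp22 is shown because the measurements concern promoter use. It is the stretch of 250 bases that ends at the base before the RefSeq gene start in GRCr8, chr10:48294682-48294931 on the plus strand. The TSSs below are in rn5 coordinates, so it was not determined which of them this sequence belongs to.
Pmp22 promoter: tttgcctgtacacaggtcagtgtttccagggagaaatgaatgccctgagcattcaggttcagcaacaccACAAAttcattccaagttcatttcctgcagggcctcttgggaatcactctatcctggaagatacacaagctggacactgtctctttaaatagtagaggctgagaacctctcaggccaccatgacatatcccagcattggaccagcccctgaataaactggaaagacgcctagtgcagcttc
Capitals mark the single match to the SOX core ACAAA, searched on both strands, which starts 181 bases before the gene start. This motif was present in 43.6% of the 33469 rat promoter windows of this length. The other SOX core searched was ACAAT, without a match here and present in 30% of the windows. The longer SOX site ACAAAG had no match and was present in 16.3% of the windows. The same held for ACAATG, which was present in 11.1% of them. The CCAAT box had 1 match, which starts 47 bases before the gene start, and was present in 34% of the windows. The TATA box core TATAAA had no match and was present in 12.9% of the windows. The stretch held 1 CG dinucleotide, against a median of 5 over all windows.

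The 22 TSSs lay on the plus strand of chromosome 10 (rn5) within 1 H3K4me3 ChIP-Seq peak, and gaps of over 500 bp divided them into 4 clusters, named A to D here from upstream to downstream. Positions are given as the authors' table gives them, and exon or intron was not assigned here. Cluster A held 7 TSSs around A4 (chr10:49316968-49317054), which is called the upstream major TSS. Cluster B held 7 TSSs around B4 (chr10:49319494-49319573), the downstream major TSS, which starts 2526 bp downstream of A4. These were the 2 Pmp22 TSSs with the highest mean level over the 14 libraries, and the other 20 are called minor. B1 to B4 lay in the SOX10 ChIP-Seq peak, and A4 lay 1546 bp upstream of the edge of this peak. Cluster C held 5 TSSs, of which C5 (chr10:49321057-49321201) was the widest, and started 1169 bp downstream of B4. Cluster D held 3, with D2 (chr10:49322470-49322567) the widest, at 2976 bp downstream of B4. In 8 of the 22 TSSs the start and end differed by 1 bp, which held for 4.41% of all listed TSSs. Among 2993 genes Pmp22 shared rank 6 in the number of TSSs, and genes with more included Malat1 with 66, Neat1 with 39, Vim with 35 and Cnp with 30.

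**Figure D1:**
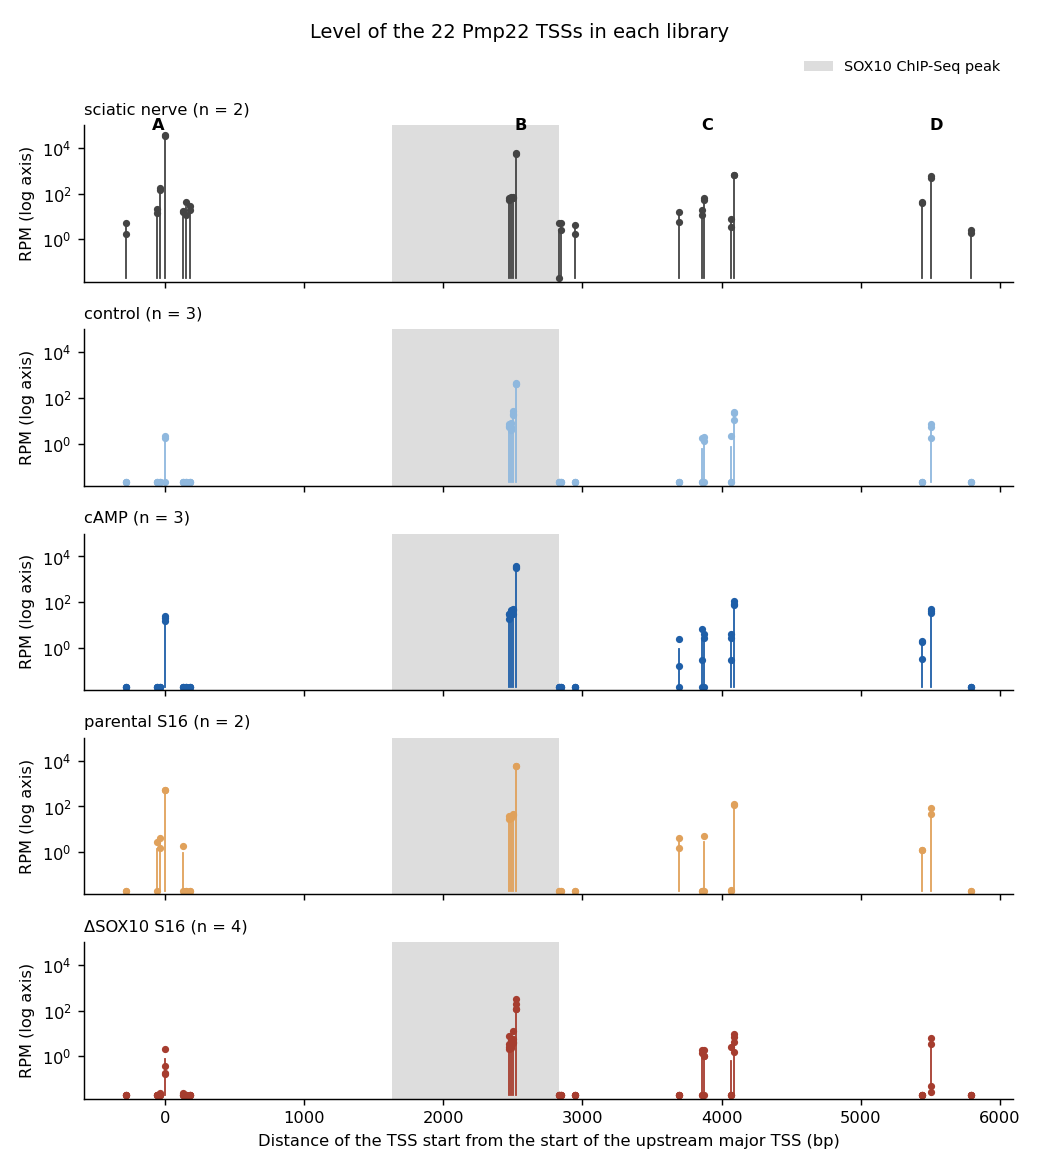
Level of each Pmp22 TSS (RPM, log axis, 0 drawn at 0.02) against its distance from the start of A4 (bp) in the 5 groups. Points are libraries, lines reach the group mean, and the grey area is the SOX10 ChIP-Seq peak. A4 is the tallest line in nerve and B4 in each of the other groups.

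Library totals, recovered from the RPM value of 1 read, ran from 29895599 to 79940274 reads, and 3 reads, used as the floor, corresponded to 0.0375 to 0.1 RPM. The single listed Sox10 TSS was at 90.7 and 77.5 RPM in the parental libraries and at 0.0255, 0.0254, 0 and 0.114 RPM in clones 1-1, 1-2, 2-1 and 2-2, at most 4 reads. Schwann cell markers were listed for 6 of 10 genes, and their sum was 27913 to 30152 RPM in nerve, 5453 to 5600 in control, 7082 to 7871 in cAMP, 3466 to 3589 in parental and 11.04 to 22.3 in ΔSOX10 libraries. Of the fibroblast markers 2 of 7 were listed, Col1a1 and Pdgfra, with a sum of 134 to 138 RPM in nerve, 803 to 909 in control, 370 to 466 in cAMP, 2255 to 2829 in parental and 2971 to 5302 RPM in ΔSOX10 libraries, and Pdgfra was at 0 in control. None of 6 endothelial and 5 neuronal markers was listed. Among the 6 leukocyte, 4 perineurial, 5 pericyte and smooth muscle and 4 adipocyte markers 1 each was listed, and their levels in nerve were 1.07 to 4.82 RPM (Csf1r), 51.1 to 51.5 (Itgb4), 30.6 to 54.8 (Pdgfrb) and 44.1 to 83.4 (Cfd). In the other groups Csf1r did not exceed 0.966 RPM, Itgb4 5.09, Pdgfrb 29.6 and Cfd 2.44. The part of other cell types in the Pmp22 levels was not tested.

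Over all 22 TSSs, Pmp22 reached 42325 and 45600 RPM in the nerves, 512, 446 and 458 RPM in control, 4314, 3444 and 3524 RPM in cAMP, 6707 and 6671 RPM in parental and 224, 135, 143 and 378 RPM in ΔSOX10 libraries. No group overlapped another. In the bulk tissue and cultures measured here, fewer expressing cells and less RNA per cell cannot be told apart. Among listed genes ordered by summed RPM, Pmp22 ranked 3 and 2 in the nerves, 5 to 8 in cAMP, 5 and 3 in parental, 137 to 157 in control and 165 to 387 in ΔSOX10 libraries.

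The upstream major TSS A4 was at 34274 and 38188 RPM in nerve. It was at 534 and 514 RPM in parental libraries and at 23.9, 20.2 and 14.5 RPM in cAMP. In control it was at 0, 1.82 and 2.04 RPM, and in the clones 1-1, 1-2, 2-1 and 2-2 at 0.178, 0.381, 0.191 and 2.22 RPM. The order of its levels was nerve, parental, cAMP and then control and ΔSOX10, whose values overlapped. Control 1 had 0 of 29236 Pmp22 reads in cluster A, against 119 and 105 reads in controls 2 and 3. Reads carry no molecular identifiers, so no upper limit of the share is read from this 0. The downstream major TSS B4 was at 6270 and 5680 RPM in nerve and at 5870 and 5840 RPM in parental libraries, so these groups overlapped. It was at 3991, 3184 and 3302 RPM in cAMP, at 451, 394 and 391 RPM in control, and at 193, 124, 119 and 343 RPM in the clones. These last groups were ordered without overlap.

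Cluster A took 81.5% and 84.3% of Pmp22 5′ ends in the nerves and 8.06% and 7.76% in the parental libraries. In the other groups it took under 1%: 0%, 0.407% and 0.446% in control, 0.554%, 0.585% and 0.412% in cAMP, and 0.0910%, 0.302%, 0.133% and 0.588% in ΔSOX10 libraries. The 95% Wilson bounds of these shares lay within 0.188 percentage points of them and treat each read as an independent count. They do not cover variation between libraries. Reads carry no molecular identifiers, so copies of a molecule cannot be told from separate molecules and these bounds may be too narrow.

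**Figure D2:**
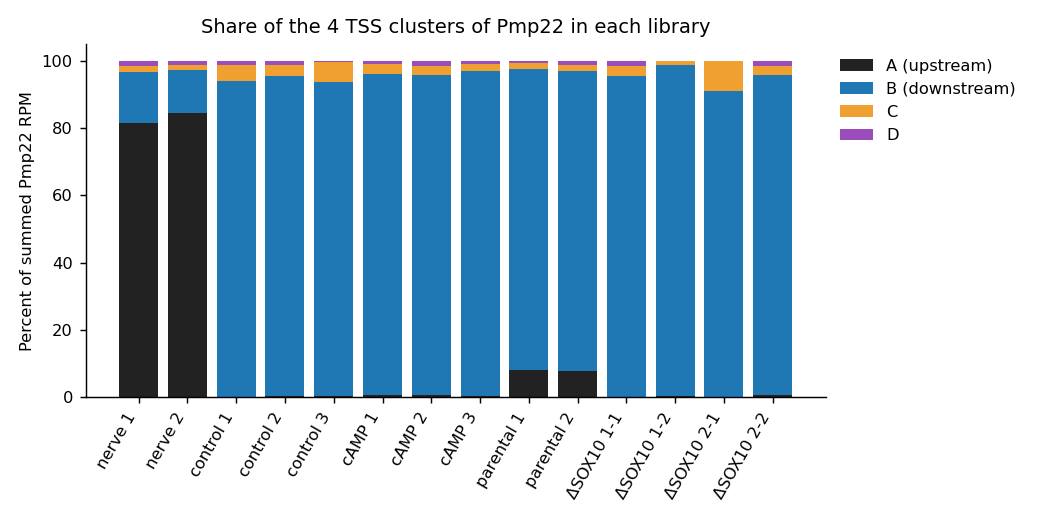
Percent of the summed Pmp22 RPM in clusters A to D, 1 bar per library. Cluster A fills 81.5% and 84.3% of the nerve bars and 8.06% and 7.76% of the parental bars, and cluster B fills at least 89.1% of each bar other than nerve.

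The minor TSSs were a small part of the gene in nerve, 4.21% and 3.8% of its 5′ ends, and reads fell on 21 and 22 of the 22 TSSs there. In parental libraries they took 4.53% and 4.76% with 11 to 13 TSSs having reads, in cAMP 6.92%, 6.96% and 5.88% with 10 to 12, in control 11.9%, 11.4% and 14.1% with 7 to 9, and in the clones 13.7%, 7.64%, 16.5% and 8.63% with 8 to 10. The share was therefore higher in every control and ΔSOX10 library than in every library of the other 3 groups. The number of TSSs with reads also depends on how many Pmp22 reads a library had. These were 1265342 and 1750041 in nerve, 23535 to 29236 in control and 5246 to 13263 in the clones. Minor TSSs of cluster A were near absent in culture, where A4 was far lower as well. Whether their absence goes beyond the lower level of A4 was not tested. A1, A6 and A7 had no read outside nerve, where they were at 1.64 and 5.37, 12.1 and 41.8, and 28.8 and 18.4 RPM. The same held for B5, B6, B7 and D3, at 0 to 5.13 RPM in nerve. A2, at 21.9 and 14.6 RPM in nerve, was at 2.71 and 0 RPM in parental libraries and without reads elsewhere. A5, at 17.4 and 15.01 RPM in nerve, was at 0 and 1.87 RPM in parental libraries and had 1 read in clone 1-1. A3, at 137 and 179 RPM in nerve, was 0.399% and 0.468% of A4 there, and at 4.11 and 1.56 RPM it was 0.771% and 0.303% of A4 in parental libraries.

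B1, B2 and B3, which start 50, 36 and 24 bp upstream of B4 in the SOX10 peak, were detected in all 14 libraries. B1 was at 61.1 and 54.6 RPM in nerve and B3 at 61.1 and 71.6. Together they were 2.98% and 3.42% of B4 in nerve, 2.13% and 1.75% in parental and 3.19%, 3.06% and 2.89% in cAMP libraries. In control they were 6.60%, 7.96% and 9.31% of B4 and in the clones 10.5%, 6.95%, 9.13% and 4.76%. Control and ΔSOX10 libraries, in which B4 was lowest, thus had the highest ratios, without overlap with the other groups.

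C5 and D2 were the strongest minor TSSs of nerve. C5 was at 668 and 648 RPM and D2 at 565 and 482 RPM there, and they were at 114 and 127 and at 47.1 and 82 RPM in parental libraries. Relative to B4, C5 was 10.7% and 11.4% in nerve and 1.94% and 2.17% in parental libraries, and D2 was 9.01% and 8.49% in nerve and 0.802% and 1.40% in parental. Nerve thus had the highest ratio of both to B4. As a share of all 22 TSSs, C5 was 1.58% and 1.42% in nerve, 1.7% and 1.904% in parental and 2.63%, 2.40% and 2.04% in cAMP libraries. It was 4.41%, 2.51% and 5.37% in control and 1.85%, 1.19%, 6.37% and 1.79% in clones 1-1, 1-2, 2-1 and 2-2, so clone 2-1 stood above the other clones. The share of D2 was 1.33% and 1.06% in nerve, 1.354%, 1.13% and 0.387% in control, 0.994%, 1.51% and 0.981% in cAMP, and 0.702% and 1.23% in parental libraries, and these groups overlapped. D2 was 1.501% and 1.61% in clones 1-1 and 2-2, with 132 and 214 reads, and 0.0377% and 0.0191% in clones 1-2 and 2-1, with 2 reads and 1 read. The clones thus fell into a pair with 132 or more reads on D2 and a pair with at most 2.

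**Figure D3:**
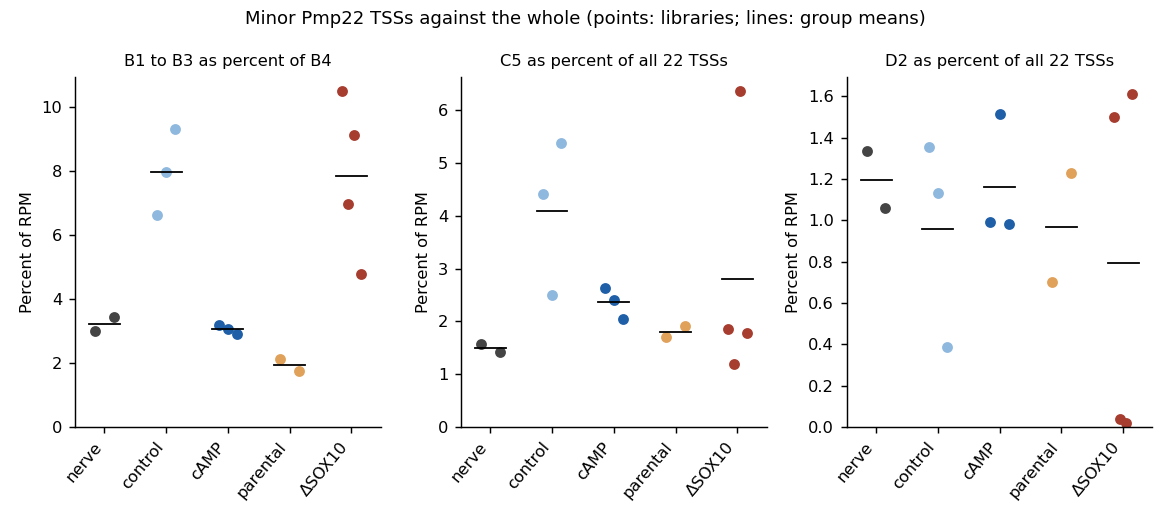
B1 to B3 as percent of B4, and C5 and D2 as percent of all 22 Pmp22 TSSs, in each library (points) with group means (lines); vertical axes start at 0. B1 to B3 lie between 4.76% and 10.5% in control and ΔSOX10 libraries and between 1.75% and 3.42% in the others, while D2 spans 0.0191% to 1.61% among the ΔSOX10 clones.

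The comparison of cAMP with control addresses TSS use when Schwann cells differentiate in culture. Of the 22 TSSs, 11 passed the filter (above 1 RPM in at least 2 libraries), 7 of these rose and none fell, where 12.9% of the 4119 TSSs tested rose and 11% fell (limma on log2(RPM + 1), adjusted p under 0.05). In 8 of the 11 the cAMP libraries all lay above the control libraries, as in 19.2% of all TSSs tested. These 8 include D1, which was above 1 RPM in cAMP alone and passed the filter through that group. The median log2 fold change of the 11, D1 included, was 1.95, against 0.02 over all TSSs tested. The summed level rose 7.97-fold, by 2.99 ± 0.08 on the log2 scale (SE, adjusted p = 5.7e-20 by limma), where 14.6% of 2853 genes rose. A4 rose by 3.30 ± 0.51 (adjusted p = 3.9e-05 by limma) and B4 by 3.08 ± 0.08 (adjusted p = 1.2e-17 by limma). In mean RPM these were 15.2-fold, or 10.1-fold without control 1, and 8.48-fold, since the pseudocount of 1 RPM understates the change of low TSSs. B1 went from 6.97, 5.81 and 5.19 RPM to 29.8, 18.2 and 31.4 RPM, and its groups did not overlap. B2 went from 3.8, 8.08 and 5.15 RPM to 46.1, 36.0 and 34.9 RPM, also without overlap. B3 went from 19.0, 17.5 and 26.0 RPM to 51.3, 43.3 and 29.1 RPM, the smallest called rise (0.94 ± 0.26 on the log2 scale), and this call was lost without control 2, cAMP 1 or cAMP 2 (adjusted p = 0.0503 to 0.0958 by limma) and in the model of all 14 libraries (adjusted p = 0.0748 by limma). C5 went from 22.6, 11.2 and 24.6 RPM to 114, 82.8 and 72.0 RPM, with separate groups. D2 rose by 3.09 ± 0.39, from 6.93, 5.06 and 1.77 RPM to 42.9, 52.1 and 34.6 RPM. C2, C3 and C4 were at 6.81 RPM or less in every library of both groups and were not called. D1 was at 0 in control and at 1.79, 0.321 and 2.08 RPM in cAMP, which were 143, 18 and 142 reads. No minimum fold is given for it, since A4 ran from 0 to 119 reads among the control libraries. D1 was not called (adjusted p = 0.198 by limma), although DESeq2 on recovered reads called it (adjusted p = 0.0133). The call of A4 was kept with edgeR (adjusted p = 0.0236) and lost with DESeq2 (adjusted p = 0.0572), both on recovered reads.

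Whether the TSSs rose by equal folds was tested with limma's diffSplice over the 11 TSSs. Unequal folds were called for Pmp22 (adjusted p = 0.0186, F test) as for 8.48% of 460 genes, but no single TSS was called against the rest of the gene. The call was lost with a pseudocount of 0.1 RPM (adjusted p = 0.824 by diffSplice) and without control 2, control 3 or any cAMP library (adjusted p = 0.0584 to 0.118 by diffSplice). The upstream share overlapped between the groups (0.284% ± 0.247 in control and 0.517% ± 0.0925 in cAMP, SD, n = 3 each, exact two-sided permutation p = 0.2). The minor share was lower in cAMP (6.59% ± 0.616 against 12.5% ± 1.44, SD, n = 3 each, exact permutation p = 0.1, the smallest that 3 against 3 allows). The adjusted values over the 12 share tests made here were 0.343 and 0.24.

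The comparison of ΔSOX10 with parental S16 cells addresses which TSSs differ in clones that lack SOX10. The clones had been treated with puromycin and grown from single cells, while the parental line was unmodified. Loss of SOX10 and selection of clones therefore cannot be told apart. The study also names indirect effects of SOX10 loss as likely, and direct and indirect effects were not separated here. Of the 12 Pmp22 TSSs that passed the filter, 9 fell and none rose, where 6.55% of the 3875 TSSs tested fell and 1.65% rose (limma). In 10 of the 12 every clone lay below both parental libraries, as in 21.7% of all TSSs tested. These 10 include A3, C1 and D1, which were above 1 RPM in the parental libraries alone, so the filter fixed this for them in advance. Of the 9, A3 and C1 were above 1 RPM in the parental libraries alone, so they passed the filter through that group, and both calls were lost without clone 1-1, 1-2 or 2-1 (adjusted p = 0.0538 to 0.0652 by limma). The call of C1 was also lost with edgeR (adjusted p = 0.0637). The summed level was 30.4-fold lower in ΔSOX10 cells and fell by 5.05 ± 0.35 on the log2 scale (SE, adjusted p = 2.7e-06 by limma), where 5.92% of 2787 genes fell. Both major TSSs fell, and A4 by the larger fold: its mean level was 705-fold lower, and that of B4 30-fold. Without clone 2-2 the ratio of A4 was 2093-fold, which rests on 7, 15 and 7 reads in clones 1-1, 1-2 and 2-1. B1 went from 39.7 and 28.6 RPM to 2.17, 2.57, 3.66 and 7.52 RPM in clones 1-1, 1-2, 2-1 and 2-2. B2 went from 37.3 and 31.8 RPM to 5.22, 2.31, 3.03 and 3.28 RPM. B3 went from 48.0 and 41.7 RPM to 12.8, 3.74, 4.21 and 5.53 RPM. These minor TSSs fell 8.58-fold, 9.99-fold and 6.82-fold, every clone lay below both parental libraries, and their log2 fold changes of -2.91, -3.03 and -2.74 had adjusted p-values of 0.0045, 0.0012 and 0.0062 (limma). C5 fell to 4.15, 1.6, 9.13 and 6.75 RPM, 22.3-fold in the mean, with a log2 fold change of -4.41 ± 0.51 (adjusted p = 7.4e-04 by limma). D2 fell to 3.36, 0.0508, 0.0273 and 6.10 RPM, with a log2 fold change of -4.72 ± 0.82 (adjusted p = 0.0072 by limma), a call lost with edgeR (adjusted p = 0.0649), with DESeq2 (adjusted p = 0.116) and with a pseudocount of 0.1 RPM (adjusted p = 0.0747 by limma). C2, which could not fall, was at 0 in both parental libraries and at 1.83, 0, 0 and 1.45 RPM in the clones, and C3 was at 5.29 and 0 RPM against 1.10, 0, 1.07 and 1.97 RPM. Neither was called (adjusted p = 0.531 and 0.820 by limma), and the groups overlapped. D1, at 1.22 and 1.30 RPM in parental libraries, had no read in any clone (adjusted p = 0.0678 by limma). It was called lower in 2 of 12 alternatives.

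Unequal folds among the 12 TSSs were called (adjusted p = 9.7e-12, diffSplice F test), as for 5.04% of 417 genes. A4 fell more than the other Pmp22 TSSs, with a log2 difference from them of -5.88 (adjusted p = 5.7e-11 by diffSplice). The size of the A4 difference depended on the TSSs and the scale, at -4.57 over the TSSs with a mean of at least 5 RPM (adjusted p = 1.2e-04 by diffSplice) and -3.15 with edgeR on recovered reads (adjusted p = 3.2e-05). B4 was called too, at -2.24 (adjusted p = 0.0125 by diffSplice), but the TSSs it was compared with included low ones. Its log2 fold change of -5.04 lay close to those of D2 (-4.72) and C5 (-4.41). No larger fall of B4 than of these is read from this test. C2, C3 and D1 were at 5.29 RPM or less in parental libraries, C2 at 0, and could not fall as far on this scale, so nothing is read from their place in this test. B1, B2 and B3 differed from the rest by -0.05 to 0.27 and were not called. The upstream share was 7.91% ± 0.214 in parental (SD, n = 2) and 0.279% ± 0.226 in ΔSOX10 libraries (SD, n = 4, exact two-sided permutation p = 0.0667, adjusted p = 0.24). The minor TSSs of cluster B took 1.70% ± 0.236 and 6.84% ± 2.00 of Pmp22 5′ ends (n = 2 and 4, exact permutation p = 0.0667, adjusted p = 0.24), and 0.0667 is the smallest p that 4 against 2 allows. The share of C and D overlapped between the groups (2.87% ± 0.435 and 4.78% ± 3.16, n = 2 and 4, exact permutation p = 0.533).

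**Figure D4:**
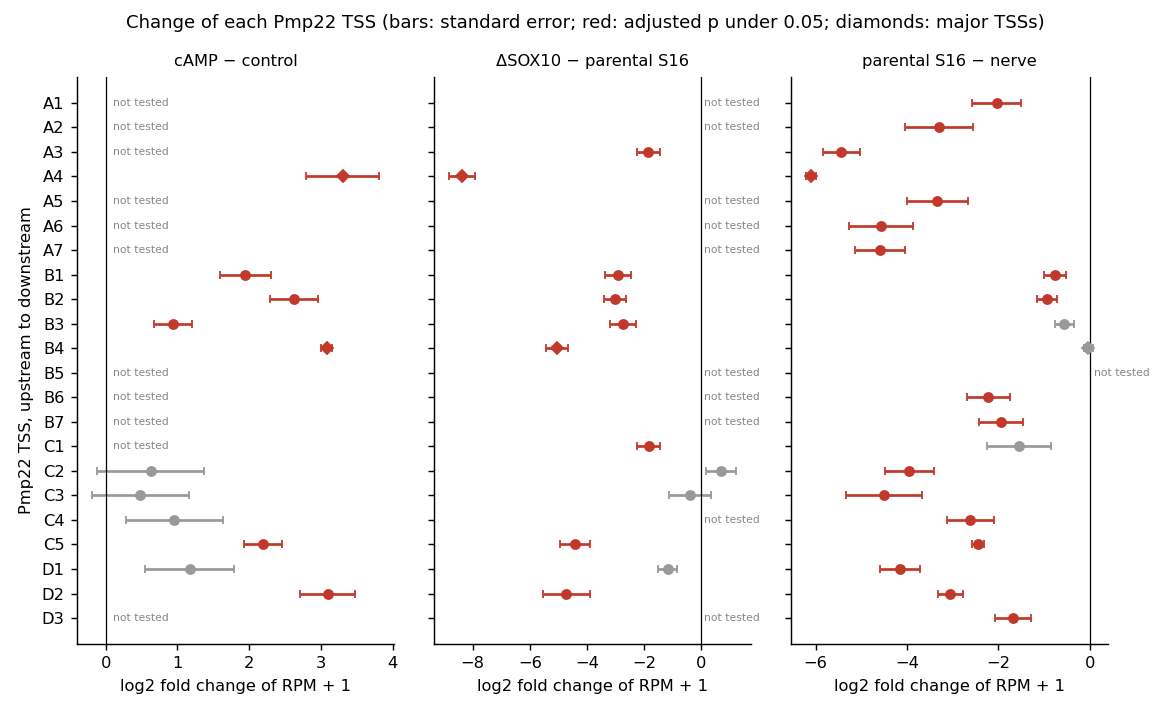
Log2 fold change of RPM + 1 (horizontal axes, which differ in range) for each Pmp22 TSS tested, upstream to downstream, in cAMP against control, ΔSOX10 against parental S16 and parental S16 against nerve; bars are standard errors and red marks adjusted p under 0.05. In the ΔSOX10 panel A4 lies at -8.37, B4 at -5.04 and B1 to B3 between -3.03 and -2.74.

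Parental S16 cells were set against nerve to compare TSS use in the cell line with that in the tissue in which the TSSs had been defined; the parental libraries also served the previous comparison. Of 21 TSSs tested, 18 were lower in S16 cells and none higher, where 21.1% of the 4659 TSSs tested were lower and 23.8% higher (limma). In 20 of the 21 both S16 libraries lay below both nerves, as in 35.6% of all TSSs tested. Without nerve 1 or without nerve 2, 13 were tested and 11 called lower. Of the 18, 8 were above 1 RPM in nerve alone, so they passed the filter through that group. These 8 are also among the 20 without overlap, which the filter fixed for them in advance. The summed level was 6.57-fold lower in S16 cells, a log2 fold change of -2.72 ± 0.12 (SE, adjusted p = 2.2e-07 by limma), where 12.1% of 2939 genes were lower. A4 was 69.2-fold lower, while B4 differed by -0.03 ± 0.11 on the log2 scale (adjusted p = 0.854 by limma). The call on B4 depended on the setting, and B4 was called lower in 4 of 14 alternatives. With median-ratio and TMM factors it was -0.52 (adjusted p = 0.0118 by limma) and -0.43 (adjusted p = 0.0227 by limma). These factors moved the median of all TSSs from 0.02 to -0.40 and -0.32. Relative to that median, B4 was -0.05, -0.12 and -0.11, and A4 -6.13, -6.20 and -6.19. B1, B2 and B3 were 1.69-fold, 1.93-fold and 1.48-fold lower in S16 cells, and their calls were not stable. B1 (adjusted p = 0.0465 by limma) lost its call in 5 alternatives (adjusted p = 0.0515 to 0.296), among them leaving out parental 1 or 2. B2 (adjusted p = 0.0140 by limma) lost it in 2, without parental 2 and in the model of all 14 libraries. B3 was not called on the deposited scale (adjusted p = 0.0748 by limma). It was called in 5 of 14 alternatives, among them both of those scalings. C5 was 5.46-fold and D2 8.11-fold lower (adjusted p = 7.2e-05 and 3.2e-04 by limma), and D1 went from 41.1 and 37.3 RPM in nerve to 1.22 and 1.30 RPM, 31.1-fold lower. C3 was at 50.7 and 61.5 RPM in nerve and at 5.29 and 0 RPM in S16 cells.

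Unequal folds were called in this comparison (adjusted p = 7.4e-08, diffSplice F test), as for 42.2% of 586 genes. A3, A4 and C3 were lower than the rest of the gene, A4 with a log2 difference of -3.43 (adjusted p = 5.7e-05 by diffSplice), and B1, B2, B3 and B4 were higher, B4 at 2.96 (adjusted p = 4.0e-04 by diffSplice). The difference of A4 was -1.86 with a pseudocount of 0.1 RPM. The F test and the rest of the gene held 8 TSSs that were above 1 RPM in nerve alone. The sizes of these differences thus depended in part on which TSSs passed the filter, and none is read from this test. The fold changes of A4 and B4 themselves are given above. A6 and A7 were called as well, but had no read in S16 cells and entered the test through nerve, the tissue in which the TSSs had been selected. The upstream share did not overlap (82.9% ± 2.02 in nerve and 7.91% ± 0.214 in S16 cells, SD, n = 2 each, exact permutation p = 0.333, the smallest that 2 against 2 allows). The shares of C and D together overlapped, at 2.99% ± 0.345 and 2.87% ± 0.435 (n = 2 each).

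Other genes are given as their strongest listed TSS. Of 16 PNS myelin protein genes, 10 were listed. In cAMP 8 of 9 tested rose and none fell, with a median log2 fold change of 2.63 against -0.03 over 2850 genes, of which 13.5% rose. The largest were Mal (8.36), a lipid raft protein of myelin, Pllp (6.42), Mag (4.95) and Cd9 (3.05). In ΔSOX10 cells 6 of 7 fell, with a median of -6.41 against -0.17 over 2785 genes, of which 5.53% fell, among them Mal (-6.89), Cnp (-6.47) and Mbp (-6.41). In parental S16 cells against nerve 7 of 10 were lower and 1 higher, with a median of -2.94 against 0.66 over 2931 genes, of which 10.4% were lower and 36% higher, led by Pllp (-9.87), Ncmap (-9.66), Mbp (-4.67) and Mal (-4.29).

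Among 13 regulators of myelin genes 3 were listed. Egr2, which acts with SOX10 at myelin genes, rose by 5.11 and Wwtr1 by 1.2 in cAMP, while Sox10 was at -0.17 (adjusted p = 0.353 by limma). In ΔSOX10 cells Sox10 fell by 6.35, and Egr2 was at -2.71 (adjusted p = 0.0622 by limma). In parental cells against nerve, where 36% of genes were higher and the median was 0.66, Wwtr1 (2.13) and Sox10 (0.87) were called higher. Of 6 negative regulators of differentiation 3 were listed: in cAMP Jun fell by 3.13, and Id2 (3.18) and Id4 (1.27) rose. In ΔSOX10 cells Id2 rose (1.36), and in parental cells against nerve Jun was higher (1.87). Emp3 was the 1 listed member of 6 in the PMP22 family. It fell by 0.41 in cAMP, was at -0.07 in ΔSOX10 cells (adjusted p = 0.915 by limma), and was 3.10 higher in parental cells than in nerve. Of 6 genes for folding, retention and partners of PMP22, 5 were listed. The chaperone Calr fell by 0.56 in cAMP, and the integrin Itga6 (-3.05) fell in ΔSOX10 cells. In parental cells against nerve Calr (2.62) and Itga6 (1.27) were higher, and Itgb4 (-5.64) was lower. None of the 6 neighbours of PMP22 in human 17p12 was listed.

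Profiles over the 5 group means of log2(RPM + 1), each centred on its mean, were compared by their root mean square (RMS) difference across 2413 genes that reached 10 RPM in at least 1 group, with the closest TSS taken per gene. A4 had no close match: the nearest included Mal at 2.58, Igfbp6 at 2.82, Ncmap at 2.83 and Sult1a1 at 3.08, where the median gene was at 5.78. For B4 the nearest included Chadl at 0.37, Egfl8 at 0.53, Mag at 0.65 and Kcnh8 at 0.69, where the median gene was at 2.31. The Chadl TSS was at 27.7 RPM in nerve, 3.46 in control, 15.5 in cAMP, 23.8 in parental and 0 in ΔSOX10 libraries. For all 22 TSSs summed, over 2439 genes, the nearest were Kcnh8 at 1.05, Cab39l at 1.08, Mgll at 1.17, Sult1a1 at 1.18 and Plpp3 at 1.21, and the median gene was at 3.07.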

How the data were processed

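Per the labels and the study's methods, the authors trimmed reads with cutadapt 1.14, mapped them to rn5 with STAR 2.5.2a, called TSSs from clustered 5′ ends with Paraclu and counted reads in them with featureCounts (Subread 1.6.1). The deposited table gives RPM per TSS and library. Its columns of fold changes and FDR-corrected p-values, from the authors' comparisons of cAMP with control and of ΔSOX10 with parental cells, were not used. The members, lists and tests were chosen with earlier results of these data known.

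The values were tested as log2(RPM + 1) with limma 3.58.1 (eBayes with trend, diffSplice for TSS use) in R 4.3.3 on the whole table, with Benjamini-Hochberg adjustment. A TSS entered a fit when over 1 RPM in 2 or more of its libraries. Simulated data of these designs gave back 100% of 4-fold changes, with 4.31%, 0.99% and 2.91% false calls (cAMP, ΔSOX10 and nerve comparisons; 3961, 3715 and 4942 TSSs). The changes were placed only on TSSs with a mean above 5 RPM, and a fixed dispersion was used. The recovery therefore does not describe lower TSSs, among them many minor TSSs of Pmp22. Shares were compared by exact permutation in scipy 1.17.1. Nothing says that the parental libraries were separate cultures, so their spread may be technical.

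The values written in full were 100% whole multiples of 1 read within 0.02 reads, but nerve 2 had too few low values to check its step by these alone, so its library total and reads are less certain. In both parental libraries and clones 1-1 and 1-2, 8.59% to 9.35% of values were rounded to 3 digits, which makes their reads approximate. Those reads served for edgeR 4.0.16 and DESeq2 1.42.0, as alternatives. Other scalings, filters, pseudocounts and cluster gaps, a single model of all libraries, a replicate block and leaving out each library were tried as well. Beside Pmp22, genes were named by lists (those called with the largest change, at most 4, or all where few were listed), by TSS number and by likeness of profile, and 1 gene that these rules name is not reported here.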

Additional observations from a re-analysis of the deposited data

Results flagged for a closer look

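The ΔSOX10 clones are the only group here large enough to test 1 library against the others, and of 20 sets of ΔSOX10 values 4 had an extreme library by Dixon's test. A4 was at 2.22 RPM in clone 2-2, against 0.178 to 0.381 RPM in the other clones, a result that chance gives in about 1 of 20 groups. In the other 3 sets the remaining clones were tied at 0, so that any read made its library extreme and this rate does not apply. These were C4 at 2.57 RPM in clone 2-1, A3 at 0.0254 RPM in clone 1-2 and A5 at 0.0255 RPM in clone 1-1, of which the last 2 were single reads.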

How the results depend on the processing

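The direction and the call of the summed Pmp22 level were the same under every alternative run, with log2 fold changes of 2.88 to 3.05 in cAMP, -5.35 to -4.79 in ΔSOX10 and -3.48 to -2.66 in parental cells against nerve. The count of Pmp22 TSSs called was 6 to 7, 7 to 10 and 11 to 20. Leaving out 1 library gave 6 to 7, 7 to 9 and 11 to 13, and it was 11 without either nerve library. TSS use in cAMP, given as the log2 change of A4 against the other TSSs, was 1.59, and its call was lost with a pseudocount of 0.1 RPM (2.42) and without control 2, control 3 or any cAMP library (0.99 to 1.92 over all libraries left out). It was 0.67 with a pseudocount of 5 RPM, 0.65 with edgeR and 0.99 with a mean of 5 RPM or more, with the call kept. The calls of TSS use in the other comparisons held under all alternatives, with values from -6.57 to -3.15 in ΔSOX10 and from -4.44 to -1.86 with nerve. Upstream shares kept their sign under all alternatives, which say nothing of a threshold that these designs cannot reach. Of single TSSs without a call, C3 in ΔSOX10 cells turned from -0.41 to 0.92 without parental 1 (range -1.73 to 0.92 over libraries left out), and B4 in parental cells against nerve from -0.03 to 0.044 without nerve 1 (range -0.099 to 0.044); the cause was not tested. Counts over all TSSs moved by over 1.5 times in these cases. In cAMP 288 in place of 452 were lower in the model of all libraries. In ΔSOX10 64 were higher, against 36 and 28 without parental 1 or 2 and 164 with DESeq2, and 254 were lower, against 71 and 74 without parental 1 or 2 and 166 with a mean of 5 RPM or more. With nerve 1108 were higher, against 719 with edgeR, and 983 were lower, against 337 to 487 with 1 library left out and 418 with a mean of 5 RPM or more. Median-ratio and TMM scaling gave 764 higher and 1246 lower and 830 higher and 1195 lower there.

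With the replicate block, 7 TSSs were called in cAMP and 18 in parental cells against nerve, as without it, and the summed level was 2.99 and -2.72. Same-numbered libraries did not deviate together (r = 0.0294, 0.00751 and 0.0379 in cAMP, 0.0208 with nerve), and cAMP 2 correlated best with control 1. Under the block TSS use had an adjusted p of 0.0031 in cAMP and 3.3e-05 with nerve (diffSplice). No paired analysis was possible because parental and ΔSOX10 libraries share no replicate numbers. The floor of 3 reads, 0.0375 to 0.1 RPM, limits what can be said of TSSs at 0, and the clones had 5246 to 13263 Pmp22 reads each.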
